A study of Rattus norvegicus with 2 samples.

Results

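The small leucine-rich proteoglycans described here were the 9 genes Dcn, Lum, Bgn, Fmod, Ogn, Omd, Epyc, Aspn and Prelp, chosen by name from 25399 features in the files, and 8 of the 9 were detected. They were followed through 3′ single-cell RNA libraries of cells cultured from rat optic nerve, 1 library from WT Sprague Dawley rats and 1 from Nuc1 rats, which carry a spontaneous insertion mutation in Cryba1. The labels give postnatal day 7 for both, the study's methods call the cells mixed primary glial cultures, and the number of animals pooled is not stated. After filtering, 1961 WT and 1780 Nuc1 cells remained, with medians of 14050 and 16568 unique molecular identifiers (UMIs, each standing for 1 captured transcript) per cell. With 1 library per genotype no difference between genotypes could be tested: all intervals below are exact 95% intervals for counting error only, and genotype cannot be told apart from culture, litter or library.

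Small leucine-rich proteoglycans are secreted matrix proteins built around a curved stack of leucine-rich repeats, and most carry chondroitin, dermatan or keratan sulfate chains. They coat collagen fibrils, set fibril diameter and spacing, and hold growth factors such as TGF-β in the matrix. Fibroblasts of connective tissue sheaths are a major source, and in the optic nerve such cells form the meninges and septa. Class I holds decorin (Dcn), biglycan (Bgn) and asporin (Aspn), class II holds lumican (Lum), fibromodulin (Fmod), PRELP (Prelp) and osteomodulin (Omd), and class III holds osteoglycin (Ogn) and epiphycan (Epyc). In the RefSeq rat annotation (GRCr8) Dcn, Lum, the relative Kera and Epyc follow one another on the chromosome, Ogn, Omd and Aspn do so at another locus, Prelp lies next to Fmod at a further one, and Bgn has none of the other members beside it.

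Cells fell into 11 clusters, found without the 9 genes so that these did not place the cells. Clusters 0, 1, 2, 4, 5 and 7 reached at least 5000 CPM (UMIs per 1000000 UMIs of the cells) of Col1a1, Col1a2 and Col3a1 together and are called collagen-rich; they held 1743 of 1961 WT cells (88.9%) and 1263 of 1780 Nuc1 cells (71.0%). Cluster 0 was led by Igfbp5, Cpxm2, Shisa3 and Ccn3, cluster 1 by Lum itself, Penk and S100a6, cluster 2 by Cldn11, Tgm2 and Shisa3, and cluster 4 by Inmt, Cyp26b1, Apod and Gjb2. Clusters 5 and 7 were led by genes of cell division such as Top2a and Pttg1. Of the 6 fibroblast markers, 3 were highest in cluster 1 and 3 in cluster 4. Col1a2 encodes the partner chain of Col1a1 in type I collagen. It stood at only 13.6 to 19.5 CPM in the collagen-rich clusters, beside 3262 to 5401 CPM of Col1a1. Whether capture or annotation of the transcript end played a part was not tested. Outside the collagen-rich class were astrocyte-like cells (cluster 3, highest in all 9 astrocyte markers), motile-cilia-like cells (cluster 6, highest in all 6 of the markers found in the files), oligodendrocyte-lineage-like cells (cluster 8, highest in all 8), macrophage- or microglia-like cells (cluster 10, highest in 8 of 9, with Cx3cr1 at 0) and an unnamed cluster 9 led by Ttr, Gldn and Fbln2. Cluster 10 was named over both libraries together. Its WT cells had 14037 CPM of macrophage markers and 5838 CPM of astrocyte markers, but its Nuc1 cells had 5191 and 7645 CPM. Its median mitochondrial share was 7.12% in WT and 0.27% in Nuc1. The name thus describes the WT cells better than the Nuc1 cells. Cryba1 had 0 UMIs in both libraries, so it gave no check of the labels.

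Together the 9 genes gave 174799 UMIs in WT and 91258 in Nuc1 collagen-rich cells. The summed level was 6003 CPM (interval 5975 to 6031) in WT and 4026 CPM (4000 to 4053) in Nuc1, a log2 ratio of Nuc1 over WT of -0.58 (-0.59 to -0.56). In the remaining cells it was 763 and 619 CPM. Collagen-rich cells thus stood above the other cells by 2.98 (2.93 to 3.02) on the log2 scale in WT and by 2.7 (2.67 to 2.74) in Nuc1, the latter being 0.57 when the libraries were merged without integration and only 550 Nuc1 cells lay in clusters that passed the collagen limit. UMI levels count transcripts and were not scaled by gene length.

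Most of the family was richest in the collagen-rich cells. Dcn, Lum, Bgn, Ogn, Epyc and Aspn, 6 of the 8 members detected, were at least 2-fold above the other cells in both libraries, where 11.6% of the 11996 genes tested were. The fold was 39.5 in WT and 19.8 in Nuc1 for Lum and 30.9 and 10.8 for Epyc. For Dcn it was 26.2 and 13, and for Aspn 16.1 and 28.7. Lum had the largest value in WT, but its log2 interval (5.06 to 5.55) overlapped that of Epyc (4.69 to 5.23). Aspn had the largest in Nuc1, from 10 UMIs in the other cells. Its log2 interval (3.95 to 5.91) overlapped that of Lum (4.13 to 4.49). Bgn (5.69 and 8.10) and Ogn (5.77 and 6.85) had the flattest contrast of the 6. Fmod went the other way, at 22.7 CPM in WT collagen-rich cells beside 162 CPM in the other cells and at 22.6 beside 58.5 CPM in Nuc1. Prelp lay on opposite sides in the libraries, 57.8 beside 81.5 CPM in WT and 217 beside 151 CPM in Nuc1. Omd, best known from bone, had 0 UMIs among 33814309 WT and 34644332 Nuc1 UMIs, which allows at most 0.0887 and 0.0866 CPM at 3 counts. Whether the end of the Omd transcript was captured and annotated was not tested. Of the bone markers Ibsp, Bglap and Sp7, the summed level in any collagen-rich cluster of either library was at most 0.415 CPM.

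**Figure D1:**
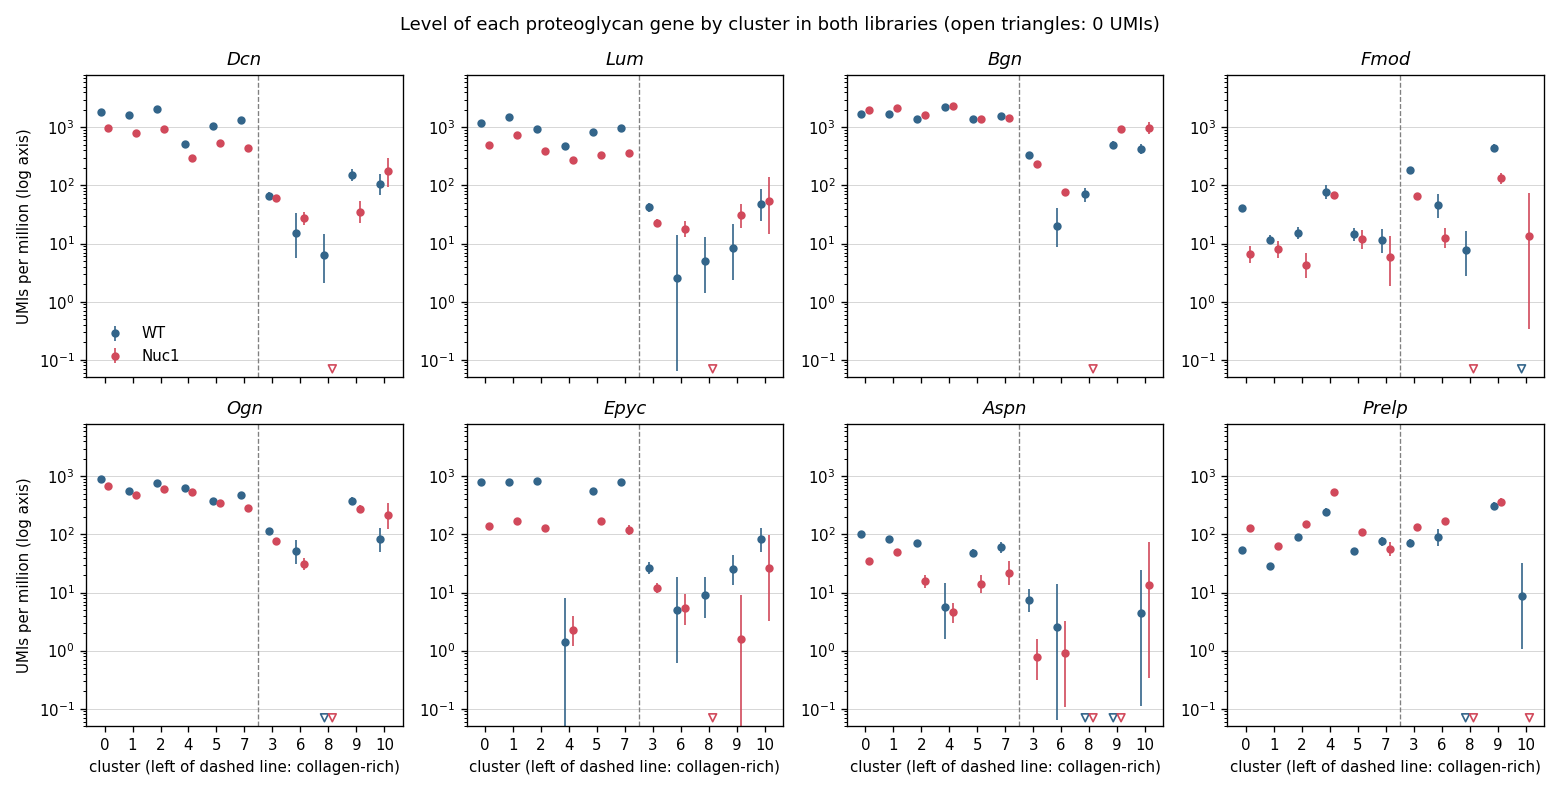
Level of each of the 8 detected genes in CPM (log axis) in each cluster, WT in blue and Nuc1 in red, with exact 95% Poisson intervals and open triangles for 0 UMIs. Epyc falls from 806 to 828 CPM in WT clusters 0, 1, 2 and 7 to 1.43 CPM in cluster 4, whereas Fmod peaks in clusters 9, 3 and 4 and Prelp in clusters 4 and 9.

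Between the genotypes, 4 of the 8 members tested in collagen-rich cells were at least 2-fold lower in Nuc1 (Dcn, Lum, Epyc and Aspn), where 4.95% of 12323 genes with at least 20 UMIs were, and 1 (Prelp) was at least 2-fold higher, where 6.8% were. The members' median log2 ratio was -0.76 beside 0.03 over all genes tested. The make-up of the collagen-rich cells differed, since cluster 4 was 3.04% of them in WT and 29.0% in Nuc1. Each member was therefore followed cluster by cluster.

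Epyc, a proteoglycan of growth-plate cartilage, showed the widest gap. Its level was 757 CPM (747 to 767) in WT and 111 CPM (107 to 116) in Nuc1 collagen-rich cells, a log2 ratio of -2.77 (-2.83 to -2.71), and 0.511% of the genes tested had a lower ratio. In cluster 0 it stood at 808 CPM in WT and 137 CPM in Nuc1. In cluster 1 the values were 806 and 172 CPM, and in cluster 2 they were 828 and 128 CPM. The WT levels of clusters 0, 1 and 2 were thus nearly level with each other, and the Nuc1 library was 4.69- to 6.47-fold below them in each. The gap was also seen among dividing cells, at 551 and 171 CPM in cluster 5 and 806 and 120 CPM in cluster 7. Fewer cells had an Epyc UMI and those had fewer: after thinning to 10000 UMIs per cell, 89.5% of 1489 WT cells and 37.4% of 1089 Nuc1 cells had at least 1 (92.9% and 43.3% of all cells unthinned), with means of 8.89 and 2.86 UMIs in cells that had any. Among oligodendrocyte-lineage-like WT cells, which should lack the gene, 10.8% of 37 did.

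Cluster 4 was all but empty of Epyc in both libraries. It held 1 Epyc UMI in WT (1.43 CPM) and 13 in Nuc1 (2.29 CPM), beside 812 and 146 CPM in clusters 0, 1 and 2 together, log2 differences of -9.14 (-14.4 to -6.67) and -5.99 (-6.90 to -5.22). The share of cluster 4 cells with a UMI was 2.04% of 49 in WT and 1.88% of 320 in Nuc1 at 10000 UMIs. The WT share was below that of the WT oligodendrocyte-lineage-like cells, whereas the few such Nuc1 cells had no UMI of any member. Whether the cluster 4 UMIs came from the cells themselves was not tested. Leaving cluster 4 out brought the Epyc ratio of collagen-rich cells to -2.39. Tnmd, listed as a tendon marker, was at 598 CPM in cluster 0 and 6.74 CPM in cluster 4 over both libraries. Of the other tendon markers listed, Mkx had no UMIs in cluster 0 and Scx none in cluster 4. The whole list summed to 599 and 6.89 CPM in these clusters, so the contrast describes Tnmd alone.

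Dcn and Lum, the abundant fibril-coating pair, were lower in Nuc1 in all 6 collagen-rich clusters. Dcn was at 1648 CPM (1634 to 1663) in WT and 693 CPM (683 to 704) in Nuc1, a log2 ratio of -1.25 (-1.28 to -1.22), with single clusters between -1.60 (cluster 7) and -0.79 (cluster 4). Lum was at 1168 CPM (1156 to 1181) and 444 CPM (435 to 452), a ratio of -1.40 (-1.43 to -1.36), with clusters between -1.45 (cluster 7) and -0.80 (cluster 4). Most cells still had both. At 10000 UMIs per cell, Dcn was found in 98.9% of WT and 89.7% of Nuc1 collagen-rich cells, but with means of 17.1 and 7.80 UMIs in cells that had any. For Lum the shares were 86.7% and 76.9% and the means 14.1 and 6.04. For this pair the means thus differed more than the shares, while for Epyc both were much lower in Nuc1. A share near its ceiling can show little of a lower level, and cluster 4 weighed differently in the libraries. The contrast with Epyc therefore describes the counts only. Lum was highest in cluster 1 in both libraries (1511 and 727 CPM) and Dcn peaked in cluster 2 of WT (2051 CPM) and in cluster 0 of Nuc1 (963 CPM). Cluster 4 had the least of both among the collagen-rich clusters, 518 and 299 CPM of Dcn and 484 and 279 CPM of Lum.

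Aspn, a class I member named for its run of aspartate residues, was a scarcer gene with the same direction. Its level was 79.0 CPM (75.8 to 82.3) in WT and 24.0 CPM (22 to 26.1) in Nuc1, a log2 ratio of -1.72 (-1.86 to -1.59). At 10000 UMIs per cell 46.5% of WT and 14.7% of Nuc1 collagen-rich cells had a UMI, with 0 of 37 oligodendrocyte-lineage-like WT cells beside them. These shares pool cluster 4, which was poor in Aspn and weighed more in Nuc1. The interval lay below 0 in 5 clusters, from -2.17 (cluster 2) to -0.78 (cluster 1), and held 0 in cluster 4 (-0.33, -1.86 to 1.65), where only 4 WT and 26 Nuc1 UMIs were counted. Its neighbour Ogn, which shares that locus, differed far less.

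Ogn, a class III member also called mimecan, was at 661 CPM (651 to 670) in WT and 545 CPM (535 to 554) in Nuc1, a log2 ratio of -0.28 (-0.31 to -0.25). Intervals lay below 0 in 5 of the 6 clusters and held 0 in cluster 5. Cells with a UMI at 10000 UMIs were 97.6% and 96.1%, so nearly every collagen-rich cell of either genotype had Ogn.

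Bgn, the class I relative of decorin, was the only abundant member above WT in Nuc1 collagen-rich cells. Over all cells it was slightly lower in Nuc1, at 1425 CPM in WT and 1372 CPM in Nuc1. In collagen-rich cells it stood at 1609 CPM (1594 to 1623) in WT and 1969 CPM (1951 to 1988) in Nuc1. The log2 ratio there was 0.29 (0.27 to 0.31), and 75.0% of all genes tested had a lower ratio. The interval lay above 0 in clusters 0, 1, 2 and 4, held 0 in cluster 5 (0.05, -0.01 to 0.11) and lay below 0 in cluster 7 (-0.13, -0.23 to -0.03). The gene was highest in cluster 4, at 2199 CPM in WT and 2363 CPM in Nuc1. With Dcn lower and Bgn slightly higher, the order of the pair in counted UMIs differed between the libraries in clusters 0 and 2, where Dcn exceeded Bgn in WT and Bgn exceeded Dcn in Nuc1. In clusters 1, 4, 5 and 7 Bgn exceeded Dcn in both libraries. Bgn made up 26.8% of the summed UMIs of WT collagen-rich cells and 48.9% of those of Nuc1, while Dcn went from 27.5% to 17.2%, Lum from 19.5% to 11% and Epyc from 12.6% to 2.77%.

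**Figure D2:**
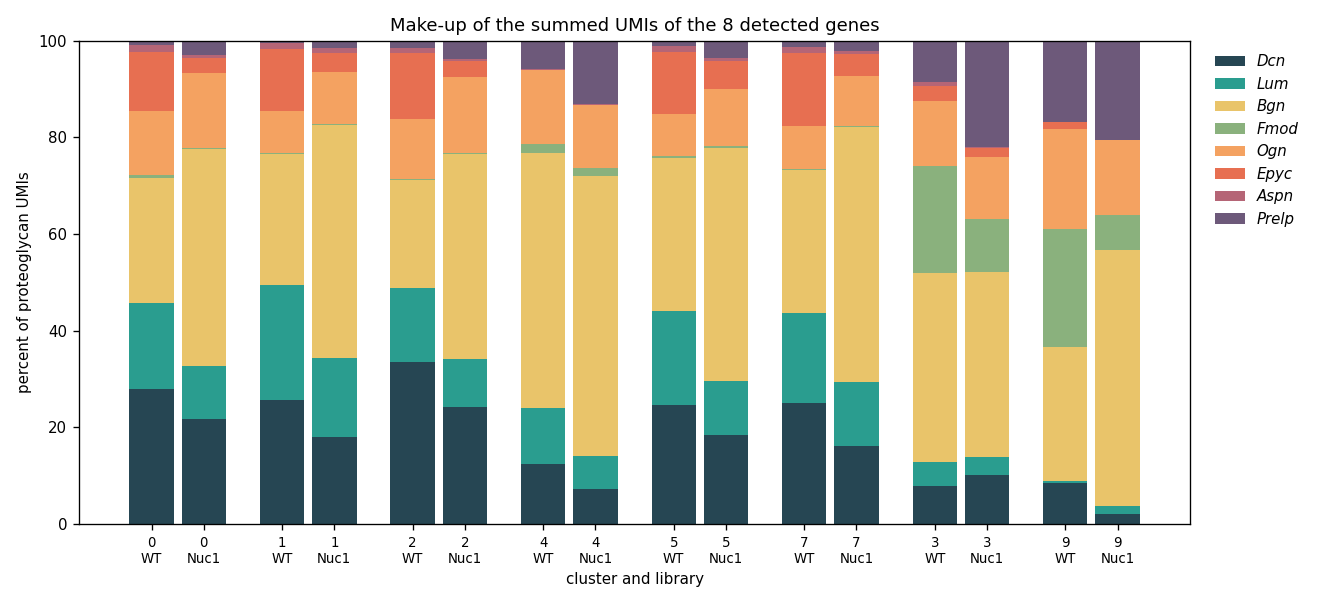
Share of each gene in the summed UMIs of the 8 detected genes (percent), by cluster and library. Bgn takes 42.4% to 57.8% in each Nuc1 collagen-rich cluster beside 22.4% to 31.8% in the WT clusters 0, 1, 2, 5 and 7, and Fmod takes 7.40% to 24.5% in clusters 3 and 9 but at most 1.86% in any collagen-rich cluster.

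Prelp, a class II member with a heparin-binding end, was the 1 member at least 2-fold higher in Nuc1. It was at 57.8 CPM (55.1 to 60.7) in WT and 217 CPM (211 to 224) in Nuc1 collagen-rich cells, a log2 ratio of 1.91 (1.83 to 1.99). Part of that came with cluster 4, where Prelp was 4.70-fold (WT) and 4.72-fold (Nuc1) above clusters 0, 1 and 2: without cluster 4 the ratio was 1.05. Within clusters it was 1.26 (1.08 to 1.43) in cluster 0, 1.15 (0.90 to 1.40) in cluster 1, 0.73 (0.55 to 0.91) in cluster 2 and 1.14 (0.92 to 1.37) in cluster 4. In cluster 7 the interval held 0 (-0.42, -0.93 to 0.07). At 10000 UMIs 34.5% of WT and 68.7% of Nuc1 collagen-rich cells had a UMI, beside 0 of 37 oligodendrocyte-lineage-like WT cells.

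Fmod, a keratan sulfate member that acts in collagen cross-linking, showed how a summed value can hide its parts. Over all collagen-rich cells it was at 22.7 CPM (21.0 to 24.5) in WT and 22.6 CPM (20.7 to 24.6) in Nuc1, a log2 ratio of -0.01 (-0.18 to 0.16). In cluster 0 it was at 41.2 CPM in WT and 6.57 CPM in Nuc1, a ratio of -2.65 (-3.19 to -2.15), and in cluster 2 at 15.3 and 4.36 CPM, a ratio of -1.81 (-2.66 to -1.04). Cluster 4, which held more of the Nuc1 than of the WT cells, had 77.5 and 68.6 CPM. Without cluster 4 the ratio was -1.57, and 4 other alternatives turned it to between 0.018 and 0.78. Intervals held 0 in clusters 1, 4, 5 and 7.

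**Figure D3:**
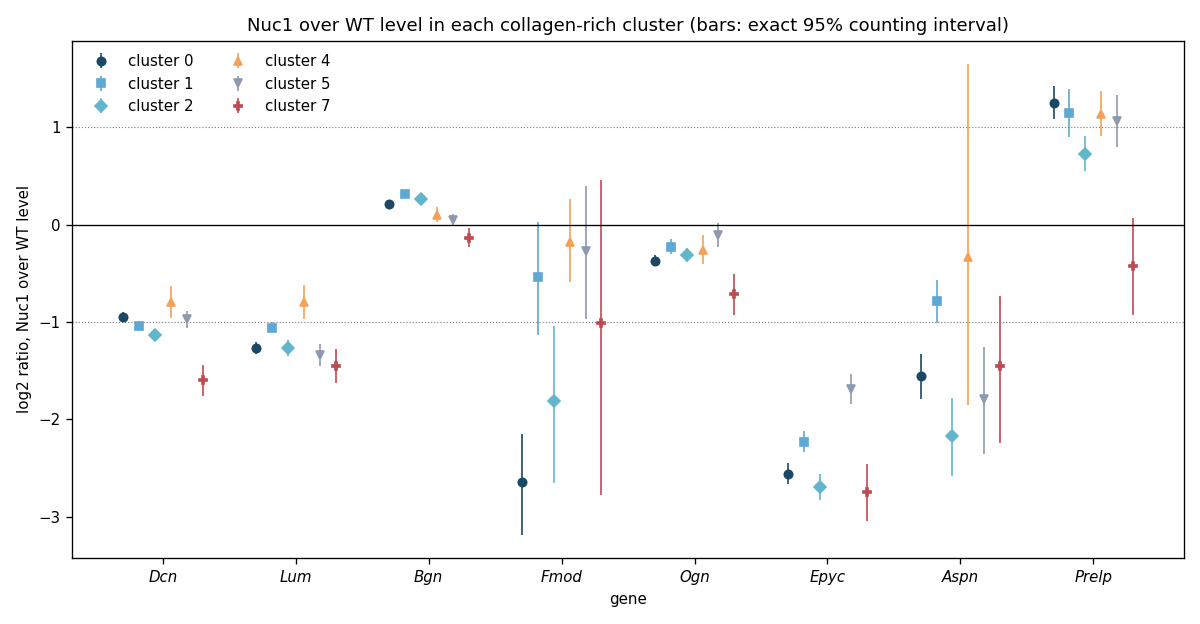
Log2 ratio of the Nuc1 over the WT level of each gene in each collagen-rich cluster with at least 20 UMIs (bars: exact 95% counting interval; dotted lines: 2-fold). Dcn, Lum and Epyc lie below 0 in every cluster shown, Prelp lies above 0 in clusters 0, 1, 2, 4 and 5, and Fmod is spread from -2.65 to -0.18.

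Counted within clusters, 4 of 8 members were at least 2-fold lower in Nuc1 in cluster 0 (Lum, Fmod, Epyc and Aspn; background 5.9%) and 1 higher (Prelp; 3.82%). In cluster 1 it was 3 lower (Dcn, Lum and Epyc; 5.59%) and 1 higher (Prelp; 3.34%), and in cluster 2 it was 5 lower (Dcn, Lum, Fmod, Epyc and Aspn; 5.06%) and 0 higher (3.78%). In cluster 4, where 7 members had 20 UMIs, it was 0 lower (3.89%) and 1 higher (Prelp; 9.3%). With the 6 clusters weighted equally the log2 ratios were -1.09 for Dcn, -1.20 for Lum, -2.38 for Epyc, -1.41 for Aspn, -0.32 for Ogn, 0.14 for Bgn, 0.94 for Prelp and -0.70 for Fmod. The summed level of cluster 4 was 4168 CPM in WT and 4088 CPM in Nuc1, a ratio of -0.03 (-0.08 to 0.03), whereas in clusters 0, 1, 2, 5 and 7 it was -0.96 to -0.52.

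**Figure D4:**
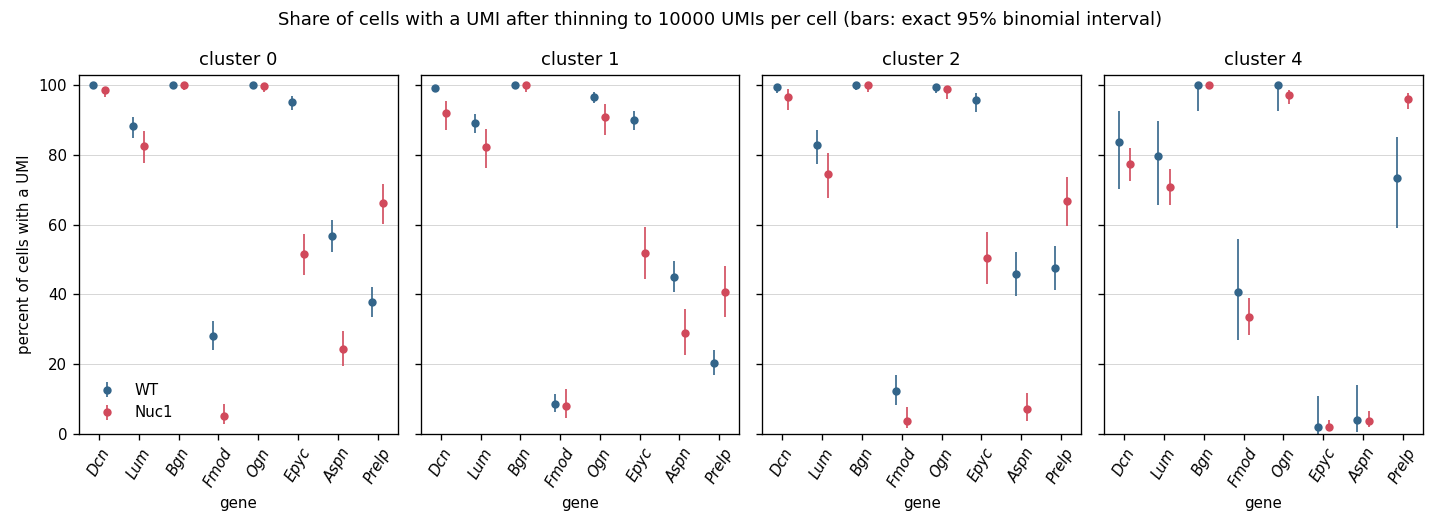
Percent of cells with at least 1 UMI of each gene after thinning every cell to 10000 UMIs, in clusters 0, 1, 2 and 4 (bars: exact 95% binomial interval). Epyc drops from 90.1% to 95.7% of WT cells to 50.5% to 51.9% of Nuc1 cells in clusters 0, 1 and 2 and is at 2.04% and 1.88% in cluster 4, where Prelp is at 73.5% and 95.9%.

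Cluster 4 had its own proportions of the family. Beside clusters 0, 1 and 2 together, 3 of 8 members (Dcn, Epyc and Aspn) were at least 2-fold lower in it in both libraries, where 4.59% of 10727 genes were, and 2 (Fmod and Prelp) at least 2-fold higher, where 4.82% were. Fmod was 3.34-fold higher in WT and 10.7-fold in Nuc1, and Aspn 15.3-fold and 7.40-fold lower. Lum was 2.61-fold lower in WT and 1.93-fold in Nuc1. Bgn (1.35- and 1.22-fold higher) and Ogn (1.13- and 1.12-fold lower) were close to the other clusters. These contrasts are descriptions, because clusters were drawn from the same cells.

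Astrocyte-like cells held Bgn most, at 330 CPM in WT and 233 CPM in Nuc1 in cluster 3, and Ogn at 114 and 77.7 CPM. In WT oligodendrocyte-lineage-like cells Bgn was at 70.0 CPM. Fmod was at 187 CPM (172 to 204) in WT and 65.9 CPM (60.7 to 71.4) in Nuc1, a log2 ratio of -1.51 (-1.68 to -1.33). Prelp was at 71.6 CPM (62.1 to 82.2) and 134 CPM (126 to 141), a ratio of 0.90 (0.68 to 1.12). For Fmod and Prelp the directions were thus those of cluster 0, a collagen-rich cluster. For Bgn they were opposite, with a ratio of -0.51 (-0.62 to -0.39) in cluster 3 and 0.22 (0.18 to 0.25) in cluster 0. Fmod was found in 61.3% of 106 WT and 34.6% of 327 Nuc1 cells at 10000 UMIs, beside 2.7% of 37 oligodendrocyte-lineage-like WT cells.

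Some astrocyte-like barcodes held collagen UMIs, so levels were taken again without cells at 1000 CPM or more of Col1a1, Col1a2 and Col3a1, which left 97 of 108 WT and 313 of 351 Nuc1 cells. Fmod was then at 192 and 68.6 CPM and Prelp at 69.5 and 129 CPM, close to the values over all cells. Dcn went from 66.7 to 13.9 CPM in WT and from 60.9 to 18.0 CPM in Nuc1, and Epyc from 26.6 to 6.54 CPM and from 12.1 to 2.09 CPM. Bgn and Ogn were between these patterns. Bgn went from 330 to 288 CPM in WT and from 233 to 136 CPM in Nuc1, and Ogn from 114 to 84.2 CPM and from 77.7 to 44.7 CPM. In motile-cilia-like cells, treated in the same way, Prelp stayed at 172 CPM in 100 of 105 Nuc1 cells while Dcn went from 27.4 to 1.94 CPM. This cluster held 14 WT cells, with 35 Prelp UMIs.

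**Figure D5:**
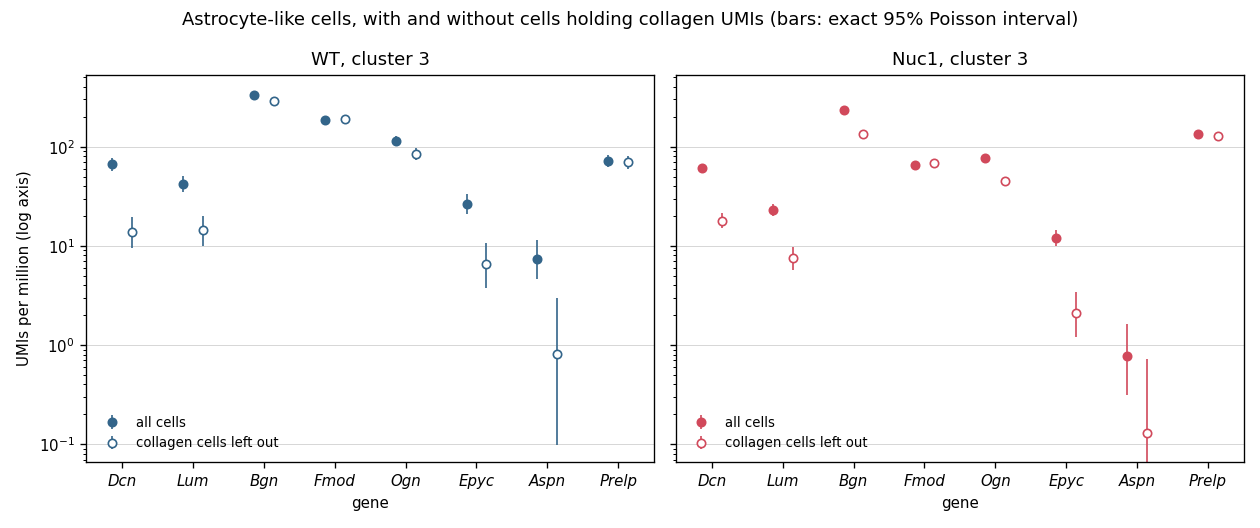
Level of each gene in astrocyte-like cells in CPM (log axis), over all cells (filled) and without cells holding collagen UMIs (open), with exact 95% Poisson intervals. Fmod and Prelp keep their level, at 187 and 192 CPM and at 71.6 and 69.5 CPM in WT, while Dcn goes from 66.7 to 13.9 CPM.

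Cluster 9, with 22 WT and 29 Nuc1 cells, had the highest Fmod level in both libraries, 445 CPM (387 to 510) in WT and 133 CPM (105 to 165) in Nuc1, and much Prelp, 307 and 367 CPM. Ogn was at 377 and 276 CPM there and Bgn at 503 and 947 CPM. Lum, by contrast, had 4 WT and 19 Nuc1 UMIs, and Aspn had none. Lum and Aspn were thus scarce where Fmod was highest.

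Cluster 10, whose macrophage- or microglia-like name describes its WT cells better than its Nuc1 cells, also held UMIs of most members. In cluster 10 Dcn was at 105 CPM in WT and 174 CPM in Nuc1, Bgn at 430 and 979 CPM, Ogn at 83.4 and 215 CPM and Epyc at 83.4 and 26.8 CPM, from 22 cells each. Prelp had 2 and 0 UMIs and Fmod 0 and 1. Median depths were 8556 UMIs in WT and 1808 in Nuc1, so after thinning to 2000 UMIs only 16 and 10 cells remained, of which 12.5% and 10.0% had a Dcn UMI beside 88.2% and 63.7% of collagen-rich cells. In the 52 oligodendrocyte-lineage-like WT cells Dcn was at 6.36 CPM and Bgn, the highest member there, at 70.0 CPM. The 10 such Nuc1 cells had 0 UMIs of any member. Whether the low levels outside the collagen-rich clusters came from the cells themselves or from RNA of other cells was not tested.

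Sequences upstream of the gene start were looked up for the members whose Nuc1 levels were lowest relative to WT and for Fmod, whose pattern differed most. RefSeq promoter windows (GRCr8) were used for 6 of the 9 members, those of Dcn, Bgn and Prelp not being analysed here, and the 250 bases before the start are shown for Epyc and Lum, which share a locus, and for Aspn and Fmod from their own loci. Capitals mark matches to TATAAA, to TTCNNNGAA, the palindrome bound by STAT factors, or to TGANTCA, the AP-1 palindrome, searched on both strands. The Epyc window is chr7:34323082-34323331, the Lum window chr7:34245456-34245705 and the Fmod window chr13:48045317-48045566, all on the plus strand, and the Aspn window is chr17:15310470-15310719 on the minus strand.
Epyc: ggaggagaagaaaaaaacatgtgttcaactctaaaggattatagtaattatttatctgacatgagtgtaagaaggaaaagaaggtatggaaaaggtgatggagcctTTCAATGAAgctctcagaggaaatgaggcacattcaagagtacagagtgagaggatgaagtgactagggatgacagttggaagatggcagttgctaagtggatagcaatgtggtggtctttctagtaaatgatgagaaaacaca
Lum: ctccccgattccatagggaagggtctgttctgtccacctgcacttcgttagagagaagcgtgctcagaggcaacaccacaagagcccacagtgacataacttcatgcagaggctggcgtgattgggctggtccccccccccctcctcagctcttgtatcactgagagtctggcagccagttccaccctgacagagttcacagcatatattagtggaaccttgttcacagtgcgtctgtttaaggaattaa
Aspn: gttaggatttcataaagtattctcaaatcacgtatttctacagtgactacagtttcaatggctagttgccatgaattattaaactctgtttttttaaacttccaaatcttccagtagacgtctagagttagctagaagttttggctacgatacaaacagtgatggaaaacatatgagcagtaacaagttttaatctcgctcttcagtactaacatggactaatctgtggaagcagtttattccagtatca
Fmod: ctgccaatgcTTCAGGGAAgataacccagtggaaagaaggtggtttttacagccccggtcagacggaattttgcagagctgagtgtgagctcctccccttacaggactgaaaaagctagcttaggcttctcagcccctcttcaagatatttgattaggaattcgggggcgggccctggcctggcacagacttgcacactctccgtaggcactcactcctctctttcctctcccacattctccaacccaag
A TTCNNNGAA match, TTCAATGAA, lay 144 to 136 bases before the Epyc start, and another, TTCAGGGAA, 240 to 232 bases before the Fmod start. No letters of these 3 motifs were matched in the Lum and Aspn windows. Over all 33469 windows 7.67% held TTCNNNGAA, 12.9% TATAAA and 6.34% TGANTCA. A match is a description of letters only.

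Which genes followed each member over cell groups was described by Pearson's r of log2(CPM + 10) over 20 profiles of library and cluster, among 11214 genes; the profiles share libraries and depth. Dcn and Lum were alike (0.95), as were Bgn and Ogn (0.93) and Epyc and Aspn (0.92), although Epyc and Aspn lie at different loci. Fmod was nearest to Prelp (0.56) and ran against Epyc (-0.45). The nearest genes overall were Grb10, Tbx15 and Igfbp6 for Dcn, with r from 0.95 to 0.97. For Lum they were Tbx15, Itgbl1 and Alx1 (0.96 each), for Bgn they were Eva1b, Copz2 and Arhgef25 (0.95 to 0.98) and for Ogn they were Fkbp10, NEWGENE_1308171 and Mfap2 (0.94 to 0.96). Epyc (0.94 to 0.95) had Tspan8, Msln and Ccn5, and Aspn (0.93 to 0.95) had Ccn5, Tspan8 and Tspan18. Fmod ran with F2r, Pdgfd and Nkd1 (0.88 to 0.91) and Prelp with C1r, Ahdc1 and Ergic3 (0.88 to 0.89). In single cells of one cluster and library the median Spearman rho over 8 such groups was 0.29 for Dcn with Lum, the highest median of all pairs, with single groups from 0.07 to 0.40. Single groups of other pairs had higher values, such as 0.45 for Dcn with Epyc and 0.41 for Lum with Epyc in Nuc1 cluster 1 and 0.44 for Lum with Bgn in WT cluster 4.

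The family's other genes were counted in collagen-rich cells against the same background of 4.95% lower and 6.8% higher. Of the other small leucine-rich relatives, 5 had enough UMIs, of which Kera and Podnl1 were at least 2-fold lower in Nuc1 and Optc higher. Kera, the keratocan gene between Lum and Epyc, had 114 WT and 23 Nuc1 UMIs, a log2 ratio of -1.95 (-2.66 to -1.29). All 4 genes of that locus were thus lower in Nuc1. Optc, next to Prelp, had 3 and 26 UMIs.

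Among 9 collagens that the proteoglycans bind, 1 was at least 2-fold lower (Col1a2) and 0 higher, with a median log2 ratio of -0.64. Col1a2, whose low count was described above, was at only 22.9 CPM in WT and 10.3 CPM in Nuc1. Col1a1 was at 5341 CPM in WT and 2759 CPM in Nuc1, a ratio of -0.95 (-0.97 to -0.94), and Col3a1 at 2955 and 2772 CPM. Of 19 genes that build the linker and the chondroitin or dermatan sulfate chains, 0 were lower and 3 higher (Csgalnact1, Chst7 and Chst15), and of 6 genes of keratan sulfate synthesis 0 were lower and 0 higher. Csgalnact1, which starts chondroitin chains, was at 30.8 and 67.2 CPM, a ratio of 1.12 (1.0 to 1.24). Chst7 rested on 4 WT and 25 Nuc1 UMIs. Chst15 rested on 9 and 15, and its interval held 0 (1.10, -0.19 to 2.47). Of 9 proteases that cut these proteins, Tll1 and Adamts1 were lower and Mmp13 higher. Most enzymes for the sugar chains were inside 2-fold. So were most of all genes tested (4.95% lower and 6.8% higher), so this does not set the enzymes apart.

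Of 14 ligands and receptors that the proteoglycans bind, Tgfb3, Ccn2 and Cd44 were at least 2-fold lower in Nuc1 and Bmp2 and Kdr higher. Tgfb3, a TGF-β ligand held by decorin and biglycan, was at 46.1 and 19.2 CPM, and Ccn2, a matricellular TGF-β target, at 760 and 302 CPM. These calls pool clusters whose shares differed between the libraries. Bmp2 was at 0.525 CPM in WT and 0.803 CPM in Nuc1 in clusters 0, 1 and 2. In cluster 4 it was at 8.61 and 16.9 CPM, so both gaps were under 2-fold. In clusters 0, 1 and 2 Tgfb3 (46.1 and 24.4 CPM) and Cd44 (27.2 and 13.8 CPM) were also under 2-fold. Ccn2 was still past 2-fold there. In cluster 4 Ccn2 was instead higher in Nuc1, at 315.6 CPM in WT and 374.8 CPM in Nuc1. Kdr rested on 11 and 22 UMIs in all. Of 16 large and cell-surface proteoglycans, Vcan, Sdc1, Sdc2 and Cspg4 were lower and Col18a1, Sdc3 and Srgn higher. Versican (Vcan) was at 211 and 78.4 CPM, and syndecan-2 (Sdc2) at 673 and 246 CPM. In clusters 0, 1 and 2 Vcan and Sdc2 were still past 2-fold, whereas Sdc1 and Cspg4 were not. Of the 3 higher genes, Col18a1 was nearly level there (95.7 CPM in WT and 99.3 CPM in Nuc1). Sdc3 (3.41 and 3.21 CPM) and Srgn (3.94 and 2.19 CPM) were lower in Nuc1 in those clusters. In both lists the counts in either direction, 3 lower and 2 higher of 14 and 4 lower and 3 higher of 16, were larger shares than the background. The counts are small and cluster 4 weighed differently in the libraries. The lists were also chosen with earlier results of these data known, so these shares are descriptions only.

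A difference in the animals was measured beside the genotype contrast. Of collagen-rich cells, 1 in WT and 278 in Nuc1 had a UMI of the Y-linked genes Eif2s3y or Kdm5d, so male cells were detected almost only in Nuc1. Within Nuc1, cells with such a UMI had 145 CPM of Epyc and those without 101 CPM, beside 757 CPM in WT. For Dcn the values were 762 and 672 CPM, for Lum 442 and 444 CPM, for Aspn 32.2 and 21.4 CPM and for Ogn 535 and 548 CPM. For Bgn they were 1995 and 1961 CPM and for Prelp 193 and 225 CPM. Fmod, at 12.9 CPM with and 25.6 CPM without such a UMI, lay on both sides of its WT level of 22.7 CPM. With 780 such UMIs in all, cells without one may also be male, and the part of sex in the contrast was not tested.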

How the data were processed

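The authors built 10x 3′ libraries, ran Cell Ranger 3.1.0 with STAR 2.7 and, per the labels, Seurat 3.1.0 and 3.1.1; the genome build is not given in the sources used here. They deposited raw UMI counts per gene and barcode, 34517542 for 2107 WT and 35794685 for 1929 Nuc1 barcodes, of which 2 barcodes were shared.

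Barcodes under 500 genes or over 20% mitochondrial UMIs were removed, and Scrublet in scanpy 1.11.5 (expected doublets 2%) removed 7 WT and 13 Nuc1 cells. Seurat 5.3.0 (R 4.3.3) integrated both libraries by anchors on 2000 variable genes without the 9 members, with 30 principal components, resolution 0.5 and seed 1. UMIs were summed per cluster and library and given per 1000000 (CPM). Intervals (95%) are exact Poisson, binomial (Clopper-Pearson) or conditional, from scipy 1.17.1, checked on simulated counts, and cover counting error only. No p-value was computed. A gene was counted as past 2-fold with at least 20 UMIs; ratios for such counts had 0.5 UMIs added. A sum of 0 allows up to 3 counts. Likeness used genes with at least 100 UMIs and clusters of at least 20 cells.

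The members, gene lists and markers were chosen with earlier results of these data known. Named genes are the members, genes of those lists, the 3 most alike genes of each member at 50 CPM or more, and up to 5 leading genes per cluster, ranked by fold after adding 20 CPM; Tnmd, Eif2s3y and Kdm5d were taken as a tendon marker and as sex markers after values were seen. Alternatives changed filters, integration, resolution, grouping, thinning and scaling (TMM, edgeR 4.0.16). The levels without dividing clusters, without cluster 4, without collagen cells, at 2000 UMIs, by Y-linked UMIs and with equal cluster weights were chosen after seeing the data. Not every alternative was applied to cluster values.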

Additional observations from a re-analysis of the deposited data

Results flagged for a closer look

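Pairs of clusters in which the Nuc1 library lay on opposite sides of WT, with counting intervals that did not hold 0, were found for 3 members; none of these differences was tested, as each rests on 1 library per genotype. For Lum the log2 ratio of cluster 9 minus that of cluster 7 was 3.30, with 4 WT and 19 Nuc1 UMIs in cluster 9. For Bgn the difference between cluster 10 and cluster 3 was 1.69, from 98 and 73 UMIs in cluster 10. For Ogn the difference between cluster 10 and cluster 7 was 2.08, from 19 and 16 UMIs in cluster 10. In cluster 10 the median depth was 8556 UMIs in WT and 1808 in Nuc1. The summed macrophage markers were at 14037 and 5191 CPM there, and the astrocyte markers at 5838 and 7645 CPM. The part of depth and cell make-up in the last 2 differences was not tested.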

How the results depend on the processing

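No paired analysis was possible because there is only 1 library per genotype. The summed ratio of Nuc1 over WT in collagen-rich cells kept its direction under all 13 alternatives. Values that moved past the counting interval were as follows. The WT level (6003 CPM) was 5969 with the libraries merged without integration, 5925 by the marker rule, 6213 after thinning, 6082 by TMM, 6314 as a mean over cells, 6334 without dividing clusters and 6048 without cluster 4. The Nuc1 level (4026 CPM) was 4087 at 10% mitochondrial UMIs, 3673 merged, 3905 by the marker rule, 4167 thinned, 3948 by TMM, 4230 as a mean over cells and 4219 without dividing clusters. Their log2 ratio (-0.58) was -0.56 at 10% mitochondrial UMIs, -0.70 merged, -0.60 by the marker rule, -0.62 by TMM and -0.59 without cluster 4. The log2 ratio of collagen-rich over other cells in WT (2.98) was 2.66 at 10% mitochondrial UMIs, 2.85 with no doublets left out, 2.86 merged, 3.50 by the marker rule, 3.09 thinned, 3.11 by TMM, 3.15 as a mean over cells and 3.05 without dividing clusters. In Nuc1 (2.7) it was 2.48, 2.63, 0.57, 3.31, 2.84 and 2.55 under the first 6 of these, and 2.77 without dividing clusters. In the merged analysis only 550 Nuc1 cells were in clusters that reached the collagen limit. Of the single genes, Fmod in collagen-rich cells (-0.01) turned to 0.37 at 10% mitochondrial UMIs, 0.018 with no doublets left out, 0.78 merged and 0.072 thinned; the cause was not tested. The other 7 detected members kept their direction under all alternatives, with Dcn between -2.03 and -1.02, Lum between -1.74 and -1.25, Epyc between -3.48 and -2.39, Aspn between -2.26 and -1.41, Ogn between -0.59 and -0.25, Bgn between 0.20 and 0.35 and Prelp between 1.05 and 2.45. The share of genes past 2-fold was 3.78% lower and 4.43% higher at a minimum of 100 UMIs, and 10.7% and 14% with none. Depth limits Fmod in clusters 1, 5 and 7 and all members in clusters 8 and 10. For Omd, capture and annotation of the transcript end were not tested.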
